A study of Mus musculus with 39 samples.

Results

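Interferon-stimulated genes are the genes that cells switch on when they receive an interferon signal, and 37 of them were followed here across a series of mouse mammary and tumour samples. The 37 were a named list. Each gene was represented by the probe set with the highest mean over all arrays, and 35 of the 37 could be measured among 18194 named genes. Isg15 was not analysed because its probe set is annotated to more than 1 gene, and Ifi44 was not analysed because no probe set carries its name in the annotation used here. Values are log2 expression, so a difference of 1 is a 2-fold difference.

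The series holds 39 arrays from 30 animals in 6 groups given by the labels. The quadruple animals (SB/Tg/K5Cre/Bcat) gave 19 breast arrays from 15 animals, and the triple K5Cre animals (SB/Tg/k5Cre), which lack Bcat, gave 8 breast arrays from 8 animals. The triple Bcat animals (SB/Tg/Bcat), which lack K5Cre, gave 3 breast arrays from 2 animals. Animals labelled bcat +/- gave 2 breast arrays of masses from 2 animals, and 3 arrays of tumours on the ventral side of 1 animal. In the titles of these 5 arrays the animal identifier begins with C57, and in no other title does it. This prefix, whose meaning the labels do not give, therefore cannot be told apart from the bcat +/- groups. The normal mammary glands (4 arrays) were taken from 1 triple Bcat, 1 quadruple and 2 triple K5Cre animals. The last 2 animals, T627 and T635, are also the sources of triple K5Cre arrays 2 and 3. The normal glands are therefore a mixture of the SB/Tg genotypes, and no group matches all 4 of them in genotype. A comparison with gland can thus also differ in K5Cre or Bcat. No array comes from an animal labelled wild type. SB stands, per the series title, for Sleeping Beauty, a transposon system that moves DNA elements within the genome of an animal's cells. The labels do not spell out Tg, K5Cre or Bcat, give no age or treatment, and call the quadruple and triple samples breast rather than tumour. By the usual naming, K5Cre is a Cre recombinase driven by the keratin 5 promoter, which is active in basal epithelium. Array medians lay between 5.10 and 5.27. Keratin 8, which marks simple epithelium, was between 10.4 and 14.2 in all arrays. The number of arrays limits the precision in the groups of 2 to 4.

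Interferons act through receptors at the cell surface. Type I interferons (the Ifna family and Ifnb1), which most cells can make on sensing foreign or misplaced nucleic acid, lead to a complex containing Stat2 and Irf9 that binds a DNA element known as the ISRE. Interferon gamma, made chiefly by T cells and natural killer cells, acts through the GAS element. In tumours and mammary tissue the response can come from epithelium, stroma or infiltrating leukocytes alike, and a bulk array does not separate them. The members fall into sensors and transcription factors (Irf7, Stat2, Ifih1, Dhx58, Zbp1), antiviral effectors (19 measured, among them the Ifit, Oas and Mx families), enzymes of the Isg15 conjugation system (Usp18, Herc6), GTPases strongly induced by interferon gamma (Gbp2, Gbp3, Igtp, Irgm1, Iigp1), antigen processing (Psmb8, Psmb9, Tap1) and a chemokine (Cxcl10).

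The DNA elements through which interferon acts lie near the starts of many such genes. RefSeq windows of assembly GRCm38.p6, from 250 bases before to 50 after a gene's start, were found for 25 of the 35 measured members. They were searched on both strands for the core of the ISRE, which is GAAA, then any 2 bases, then GAAA, and for TTCNNNGAA, the core of the GAS element. The first was present in 14 of the 25 members (56.0%), against 3.99% of 27025 genes and 3.44% of all windows. The second was present in 6 of the 25 (24.0%), against 9.55% of genes and 8.30% of windows. Both were present in 3 members (Bst2, Eif2ak2 and Igtp), with 1 overlap between the motifs, in Bst2, and neither in 8. Of the 20 ISRE core matches, 17 lay wholly upstream of the start and 3 downstream, and the only matches of Ifih1 and Eif2ak2 were downstream. Of the 6 GAS core matches, 1 was downstream, in Ifi35. A match is only a run of letters and does not show binding. No window was matched for Dhx58, Zbp1, Oas2, Mx1, Mx2, Ifi27l2a, Rtp4, Parp14, Usp18 and Iigp1. The stretches below belong to the 4 members with the motif upstream whose values spread most over the arrays. Capitals mark each ISRE core match, which reads GAAA, 2 bases and GAAA, or, where the match is on the other strand, TTTC, 2 bases and TTTC.
Cxcl10, chr5:92349073-92349122, minus strand: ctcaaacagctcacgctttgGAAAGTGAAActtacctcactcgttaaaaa
Ifit1, chr19:34640765-34640833, plus strand: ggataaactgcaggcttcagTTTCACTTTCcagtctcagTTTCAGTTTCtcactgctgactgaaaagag
Ifit3, chr19:34583353-34583436, plus strand: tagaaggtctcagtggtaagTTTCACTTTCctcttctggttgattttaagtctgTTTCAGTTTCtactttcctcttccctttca
Rsad2, chr12:26456543-26456592, minus strand: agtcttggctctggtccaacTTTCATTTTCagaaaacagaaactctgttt

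The members rose and fell together from array to array, and this variation lay within the groups rather than between them. A member level was computed for each array as the mean over the 35 genes of the log2 value minus that gene's mean over 39 arrays. It ran from -2.18 in quadruple 14 to 2.36 in quadruple 8, a range of 4.54, or 23.3-fold. Among the 19 quadruple arrays the median was -0.14 (SD 1.01). The 8 triple K5Cre arrays ran from -1.82 to 1.91 with a median of -0.13 (SD 1.32). Each of these groups thus held arrays near both ends of the whole range. The other groups were narrower. The 4 normal glands read -0.36, 0.31, -0.36 and 0.13 (SD 0.34), the 3 triple Bcat arrays -0.18, -0.0029 and 0.31 (SD 0.25), and the 3 ventral tumours, all of 1 animal, -0.02, 0.21 and 0.20. The masses of 2 animals differed from each other, at 0.09 and 1.37. Group means ran from -0.14 in the quadruple arrays to 0.73 in the masses, and neighbours in this order differed by less than the SD of the quadruple or triple K5Cre arrays.

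**Figure D1:**
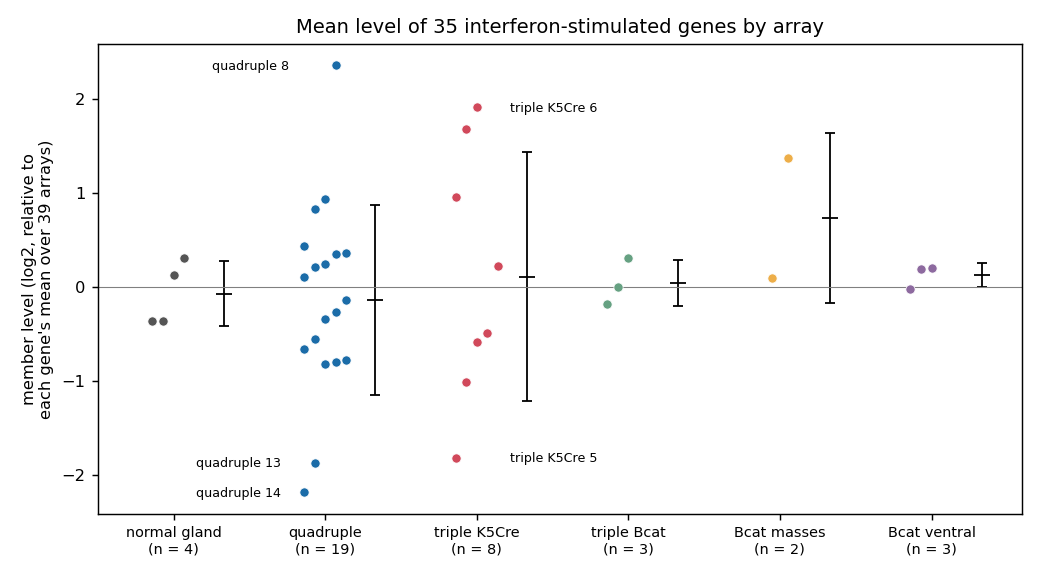
Each point is an array and the vertical axis is the member level, the mean of 35 interferon-stimulated genes in log2 relative to each gene's mean over 39 arrays; bars to the right of each group show its mean and SD. Quadruple and triple K5Cre arrays span from about -2 to above 1.9, whereas the normal glands, triple Bcat arrays and ventral tumours lie between -0.36 and 0.31.

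The arrays at the extremes moved nearly the whole list. In quadruple 8, 33 of the 35 members lay over 2-fold above their own mean (all genes: 6.01%), and 25 of the 35 had their highest value of the series there (all genes: 6.14%). In triple K5Cre 6 the count over 2-fold above was 32 (all genes: 5.39%), and in triple K5Cre 1 it was 28 (3.09%). The second array of masses had 26 (4.70%). At the other end, 29 members lay over 2-fold below their mean in quadruple 14 (all genes: 7.73%), 28 in quadruple 13 (5.35%) and 30 in triple K5Cre 5 (6.56%). No member was above its own mean in these 3 arrays. Quadruple 14 held the lowest value of the series for 20 members (all genes: 5.49%). High and low arrays thus occurred in both the quadruple and the triple K5Cre group.

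**Figure D2:**
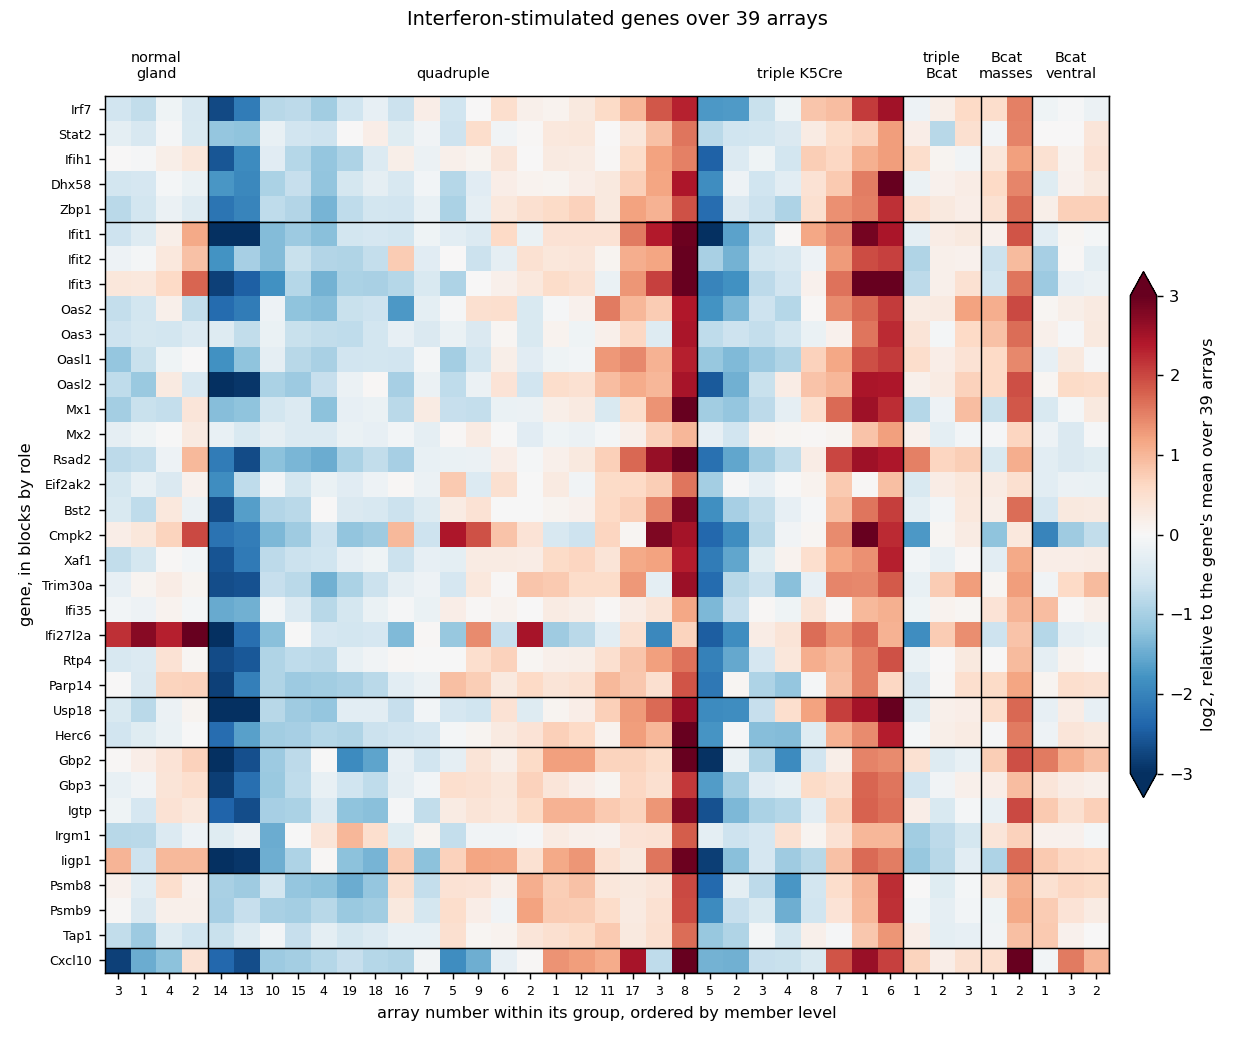
Rows are the 35 genes in blocks by role, columns are the 39 arrays by group and, within a group, ordered by member level, and colour is log2 expression relative to the gene's mean over 39 arrays, with the scale ending at 3 in each direction. Whole columns are red (triple K5Cre 6, 35 of 35 members above their mean) or blue (quadruple 14, 0 of 35), while Ifi27l2a is red in all 4 normal glands.

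Among the sensors and transcription factors, Irf7, the factor that amplifies type I interferon production, read 7.31, 7.56, 7.47 and 7.92 in the normal glands. In the quadruple arrays it ran from 5.33 (array 14) through a median of 8.07 to 10.37 (array 8), and in the triple K5Cre arrays from 6.32 through 8.40 to 10.57. The ranges of both groups enclosed the glands on either side. Triple Bcat arrays read 7.90, 8.22 and 8.64, masses 8.57 and 9.57, and ventral tumours 7.91, 7.88 and 8.002. Stat2, which partners Irf9, spanned less: 5.15 to 5.59 in the glands, 4.42 to 7.22 in the quadruple arrays (median 5.63) and 4.83 to 6.88 in the triple K5Cre arrays (median 5.54). It read 5.82, 4.80 and 6.11 in the triple Bcat arrays, 5.55 and 7.11 in the masses, and 5.65, 5.98 and 5.65 in the ventral tumours. The other members of this role, Ifih1 and Dhx58, which sense double-stranded RNA, and Zbp1, a sensor of left-handed nucleic acid, had SDs over all arrays of 0.89, 1.00 and 1.06. For comparison, the median SD of all 18194 genes was 0.33.

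Of the antiviral effectors, Ifit1, which binds foreign RNA and blocks its translation, read 7.54, 9.08, 7.32 and 8.10 in the normal glands. It ran from 4.33 (quadruple 13) through a median of 7.61 to 10.88 (quadruple 8), and from 4.62 through 8.53 to 10.81 in the triple K5Cre arrays. The values were 7.67, 8.15 and 8.22 in the triple Bcat arrays, 8.05 and 9.83 in the masses, and 7.62, 7.88 and 7.98 in the ventral tumours. Its whole range was 94.3-fold, the third widest SD of the members (1.503) after Ifi27l2a and Cxcl10 (both 1.63). At the narrow end stood the dynamin-like GTPase Mx2 (SD 0.40, a 3.51-fold range), the kinase Eif2ak2, which halts translation on binding double-stranded RNA (0.59), and Ifi35 (0.60). All 35 SDs were above the median of all genes, with a median of 1.04. The list as a whole thus varied more between arrays than a typical gene of the same arrays. Of the members, 28 covered more than 16-fold, a count that was not made for all genes.

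The GTPases and the antigen-processing genes differed in spread. The SD over all arrays ran from 0.64 (Irgm1) to 1.40 (Iigp1) among the GTPases. It ran from 0.63 (Tap1) to 0.96 (Psmb8) among the antigen-processing genes. Gbp2, a guanylate-binding protein that attacks vacuoles of intracellular pathogens, read 8.74, 9.26, 8.58 and 8.97 in the normal glands. It ran from 5.07 through 8.54 to 11.77 in the quadruple arrays, and from 5.6 through 8.16 to 10.06 in the triple K5Cre arrays. Triple Bcat arrays read 9.003, 8.16 and 8.33, masses 9.29 and 10.49, and ventral tumours 10.11, 9.43 and 9.64, so that the masses and the ventral tumours lay above all 4 glands. Igtp, an immunity-related GTPase, read 8.23, 9.05, 8.61 and 9.18 in the glands. It ran from 6.09 to 11.50 in the quadruple arrays (median 8.996) and from 6.12 to 10.50 in the triple K5Cre arrays (median 8.15). Its values were 8.94, 8.28 and 8.69 in the triple Bcat arrays, 8.52 and 10.71 in the masses, and 9.53, 9.45 and 9.22 in the ventral tumours, all 3 above the glands. Psmb8, a catalytic subunit of the immunoproteasome, which cuts peptides for display on MHC class I, read 10.02, 10.47, 10.46 and 10.84 in the glands. It ran from 8.85 to 12.32 in the quadruple arrays (median 10.62) and from 8.003 to 12.54 in the triple K5Cre arrays (median 9.90). It read 10.35, 9.98 and 10.29 in the triple Bcat arrays, 10.67 and 11.40 in the masses, and 10.78, 10.90 and 10.95 in the ventral tumours. The glands sat inside the quadruple and triple K5Cre ranges for all 3 genes.

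Cxcl10, the chemokine that draws Cxcr3-bearing T and natural killer cells, had, with Ifi27l2a, the widest spread of the members. It read 5.74, 7.66, 4.43 and 5.996 in the normal glands, the lowest value of the series being that of gland 3. The quadruple arrays ran from 4.57 (array 13) through 6.47 to 11.71 (array 8), and the triple K5Cre arrays from 5.78 through 6.67 to 9.82. It read 7.89, 7.43 and 7.71 in the triple Bcat arrays, 7.73 and 10.31 in the masses, and 7.14, 8.25 and 8.80 in the ventral tumours. Its spread among the glands (SD 1.33) was close to that among the quadruple arrays (SD 1.73).

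Against the normal glands, 1 of the 35 members, Ifi27l2a, was called in the quadruple arrays, and it fell. Calls were made by limma on all arrays with the animal as a random block. The threshold was 0.05 on the p adjusted by Benjamini and Hochberg's method over all genes. In this comparison 15.4% of all genes were called and 9.66% were called lower. The median difference of the members was -0.11, beside 0.0079 for all genes, with 12 members positive and 23 negative. This median had no stable sign: it was 0.05 without quadruple 13 and 14. The median SE of a member's difference was 0.59 (0.22 to 0.88). In the triple K5Cre arrays, 1 member was again called and lower, again Ifi27l2a, where 17.2% of all genes were called and 9.79% were called lower. The members' median there was 0.16 with 21 positive, beside 0.023 for all genes. In the 2 animals that gave both a gland and a triple K5Cre array, the sign was the opposite: the gland was higher in 27 of 35 members in T627 and in 31 of 35 in T635. Over 2-fold higher in the gland were 9 members in T627 (all genes: 11.2%) and 10 in T635 (9.93%). With the animal as a fixed term in a fit of these 4 arrays, the median was -0.72, with 0 members and 0% of all genes called. Both comparisons use the same 4 glands.

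Ifi27l2a encodes a small hydrophobic membrane protein induced by type I interferon. It read 13.47, 14.02, 12.93 and 13.07 in the normal glands. The quadruple arrays ran from 6.204 (array 14) through a median of 10.20 to 13.22 (array 2), and the triple K5Cre arrays from 8.26 through 11.46 to 12.44, below every gland. Among all genes, 5.66% lay below every gland in this way. Triple Bcat arrays read 8.89, 11.51 and 12.13, masses 10.11 and 11.61, and ventral tumours 9.89, 10.54 and 10.47, again all below every gland, as were 16.1%, 22.5% and 20.4% of all genes in these 3 groups. The quadruple mean was 10.12 ± 1.47 (SD, n = 19) against 13.37 ± 0.49 (n = 4) in the glands, a fitted difference of -3.48 (SE 0.74, limma adjusted p = 0.0010). For triple K5Cre the mean was 10.996 ± 1.601 (n = 8) and the difference -2.53 (SE 0.77, adjusted p = 0.019). The second call was lost, with a difference of similar size, without gland 2 (-2.39, adjusted p = 0.057), without gland 3 (-2.495, adjusted p = 0.072), with no block (-2.38, adjusted p = 0.0503), with animal means (-2.38, adjusted p = 0.067) and without the 3 arrays low in Xist (-2.23, adjusted p = 0.112). In the animals that gave both tissues, the gland exceeded the breast array by 4.06 in T627 and by 2.12 in T635, the largest difference of any member in each animal. With the animal as a fixed term in a fit of these 4 arrays alone, the difference was -3.09 (adjusted p = 0.193). The 3 arrays low in Xist (log2 under 9) were quadruple 5 (5.72), triple K5Cre 2 (7) and normal gland 3 (5.64). The last 2 are the breast array and the gland of T627. They therefore bear on the glands used as reference and on the pair. Why Xist was low in these arrays was not tested.

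Markers of other cell types moved with this gene. All 6 measured of the 8 adipocyte markers were called lower in both comparisons with gland, by a median of -6.08 in the quadruple and -6.18 in the triple K5Cre arrays, as were all 8 skeletal muscle markers. Of all genes, 9.66% and 9.79% were called lower in these comparisons. The adipocyte level, a mean over the 6 markers computed like the member level, was 5.24 to 5.52 in the glands, -2.72 to 5.20 in the quadruple arrays and -2.99 to 1.68 in the triple K5Cre arrays. It was -2.34 to 0.53 in the triple Bcat arrays, -2.25 to -1.55 in the masses and -2.28 to -1.37 in the ventral tumours. Quadruple 2 and quadruple 9, with the highest Ifi27l2a of their group (13.22 and 12.17), had adipocyte levels of 5.20 and 4.06. The third highest, quadruple 8 (11.42), had an adipocyte level of -2.43. In bulk tissue, fewer cells of a type and less RNA per cell cannot be told apart, and the part of adipocytes or muscle in the fall of Ifi27l2a was not tested.

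**Figure D3:**
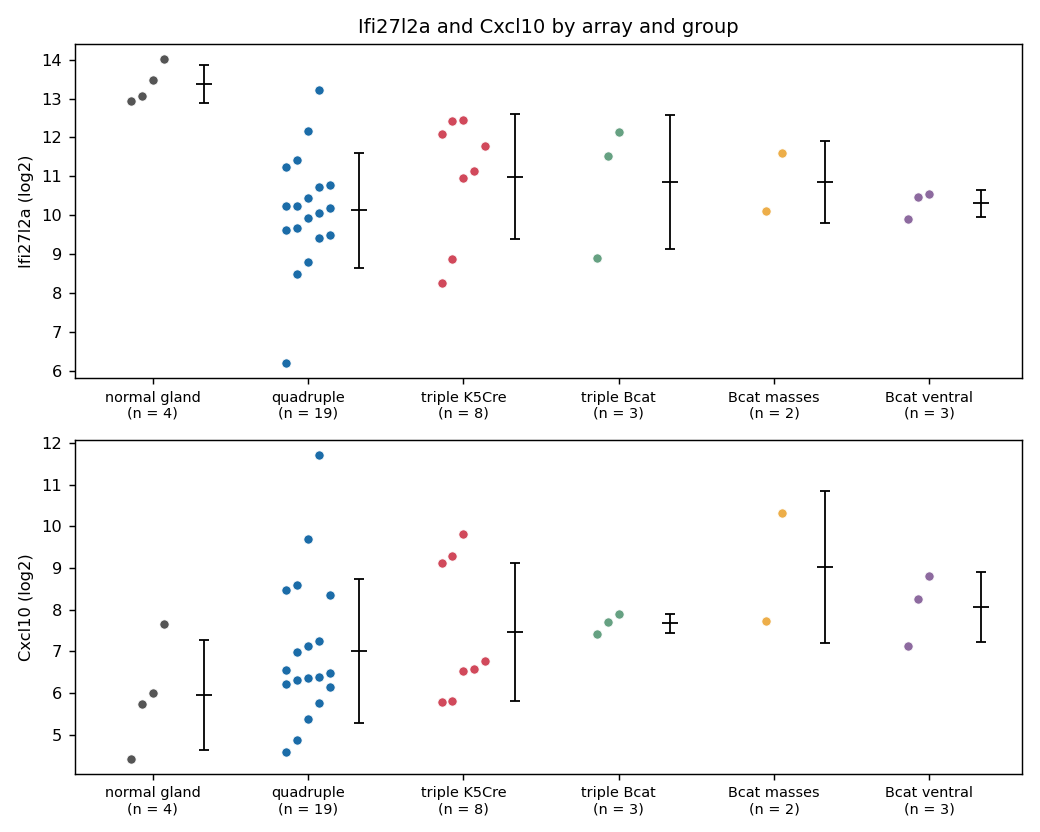
Each point is an array, the vertical axes are log2 expression of Ifi27l2a (top) and Cxcl10 (bottom), and bars show each group's mean and SD. The 4 normal glands lie between 12.93 and 14.02 for Ifi27l2a, with quadruple 2 at 13.22 the only other array above 12.93, and between 4.43 and 7.66 for Cxcl10.

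In the smaller groups no member passed the test against the normal glands in the fit of all arrays. With array weights, Ifi27l2a was called lower in all 3 groups: in triple Bcat (-1.93, adjusted p = 0.0057), in the masses (-2.52, adjusted p = 0.017) and in the ventral tumours (-2.88, adjusted p = 0.0013). Over all settings, Ifi27l2a passed in only 1 of 17 for triple Bcat, 2 of 16 for the masses and 3 of 17 for the ventral tumours. The ventral arrays all come from 1 animal. The member counts with array weights were 2 in triple Bcat (all genes: 36.2%), 6 in the masses (22.9%) and 2 in the ventral tumours (29.9%). With only the compared groups in the fit they were 2 (all genes: 11.2%), 11 (20.2%) and 3 (14.3%), with Ifi27l2a called lower in the masses (-2.51, adjusted p = 0.014) and in the ventral tumours (-3.07, adjusted p = 0.0027). For triple Bcat the count was 0 of 35 (all genes called: 7.12%), and the median difference was 0.03. At an unadjusted p under 0.05 there was 1 member, beside 4021 of 18194 genes. The smallest p belonged to Ifi27l2a (-2.89, SE 1.09, adjusted p = 0.102) and to Cmpk2, a mitochondrial nucleotide kinase (-1.64, SE 1.18, adjusted p = 0.442). Zbp1, Oas2, Oas3, Oasl1 and Tap1 were above every gland in all 3 arrays (5 of 35 members, against 12.4% of all genes). For the masses the count was 0 of 35 (all genes called: 7.28%). At an unadjusted p under 0.05 there were 3 members, beside 3851 of 18194 genes. The masses' median difference of 0.69 was the largest of the comparisons with gland, and 30 members were positive. Of the 11 members called with only the masses and the glands in the fit, 10 were higher. The median rested on the second mass: it was 1.26 without the first and 0.16 without the second. The smallest p were those of Oas3, a synthase of the oligoadenylates that activate RNase L (6.09 and 6.87 against 4.58 to 4.80, difference 1.66, SE 0.67, adjusted p = 0.132), and Ifi27l2a (-2.68, SE 1.17, adjusted p = 0.169). In both masses 14 of 35 members were above every gland, where 22.2% of all genes were. For the ventral tumours the count was 0 of 35 (all genes called: 4.03%), and the median was 0.23. At an unadjusted p under 0.05 there was 1 member, beside 3407 of 18194 genes. Ifi27l2a (-3.24, SE 1.21, adjusted p = 0.123) and Cmpk2 (-2.31, SE 1.31, adjusted p = 0.358) came first. In these tumours 9 of 35 members were above every gland (all genes: 16.8%) and 3 were below (all genes: 20.4%). In the fit of all arrays the median SE of a member's difference was 0.87 (triple Bcat), 0.93 (masses) and 0.97 (ventral tumours). These lay above the 0.59 of the quadruple comparison. That fit has 1 estimate of spread per gene, shared by all groups. The SEs therefore carry the wide scatter of the quadruple and triple K5Cre arrays (SD of the member level 1.01 and 1.32). The same SD was 0.34 in the glands, 0.25 in triple Bcat, 0.13 in the ventral tumours and 0.90 in the masses.

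The quadruple arrays did not differ from any other non-gland group in a member that passed the test. Against triple K5Cre, 0 of 35 members and 0% of all genes were called. No member had an unadjusted p under 0.05, where 811 of 18194 genes did. The median difference was -0.29, beside -0.015 for all genes, with 29 of 35 negative. The smallest p were those of Ifi27l2a (-0.95, SE 0.58) and Mx2 (-0.28, SE 0.17), both with an adjusted p of 0.995. Against triple Bcat the count was 0 (0.0330% of all genes called). At an unadjusted p under 0.05 there was 1 member, beside 1527 of 18194 genes. The smallest p were those of Irgm1 (0.88, SE 0.43, adjusted p = 0.588) and Rsad2, whose product makes a chain-terminating nucleotide (-1.25, SE 0.97, adjusted p = 0.7003). Against the masses the count was 0 (0.214% of all genes called). At an unadjusted p under 0.05 there were 2 members, beside 1472 of 18194 genes. Of the 35 differences 34 were negative, with a median of -0.89, beside 0.0015 for all genes. Oas3 (-1.47, SE 0.58, adjusted p = 0.4659) and Oas2 (-1.82, SE 0.84, adjusted p = 0.574) had the smallest p. Against the ventral tumours the count was 0 (0.143% of all genes called). It was also 0 at an unadjusted p under 0.05, where 1716 of 18194 genes passed. The smallest p were those of Gbp2 (-1.45, SE 1.03, adjusted p = 0.673) and Ifi35 (-0.54, SE 0.47, adjusted p = 0.740). A p that misses the threshold does not show that these groups are alike.

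Arrays of the same animal could differ as much as animals did. Animal Q648 gave quadruple 8, 9 and 10, with member levels of 2.36, 0.11 and -0.82. All 35 members were more than 2-fold higher in quadruple 8 than in quadruple 10, where 9.70% of all genes were, with a median difference of 3.22. The smallest was Ifi35 (12.06 against 10.82) and the largest Cxcl10 (11.71 against 6.13). Against quadruple 9, 32 of 35 members were more than 2-fold higher (all genes: 10.6%), and Cxcl10 was again the largest (5.76 in array 9). The other 3 were Mx2 (6.99 against 6.23) and Cmpk2 (9.17 against 8.59), which were higher in array 8 by less, and Ifi27l2a, which was lower in array 8 (11.42) than in array 9 (12.17). Between arrays 9 and 10, 16 members were more than 2-fold higher in array 9 (all genes: 9.24%), led by Cmpk2 (8.59 against 5.32). There is 1 array of each piece, so these differences have no replicate check.

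The 3 pieces of Q648 also differed in their cell type markers. Quadruple 9 had a skeletal muscle level of 5.08 and an adipocyte level of 4.06, and quadruple 10 had a squamous level of 3.71. Quadruple 8 had the lowest epithelial level of the quadruple arrays (-1.62), with the epithelial adhesion gene Epcam at 8.08 and the luminal progenitor factor Elf5 at 3.89, with keratin 8 at 13.2. The labels call all 3 breast. Other animals gave closer arrays. Quadruple 1 and 12, both of Q190, differed in member level by 0.0021, quadruple 18 and 19 of Q2154 by 0.11, triple Bcat 2 and 3 of Tbc-266 by 0.31, and the 3 ventral tumours by at most 0.23. The gland of T627 was above its breast array by 0.64 (27 of 35 members higher) and that of T635 by 0.72 (31 of 35).

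**Figure D4:**
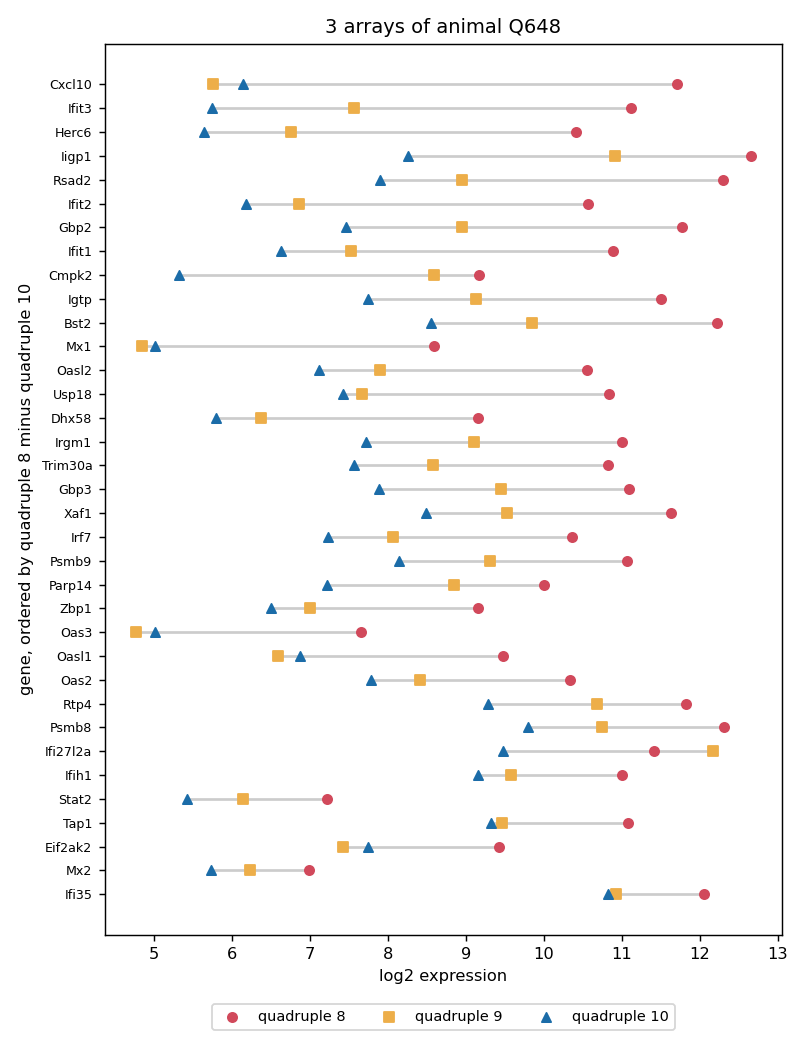
Rows are the 35 genes ordered by the difference between quadruple 8 and quadruple 10, the horizontal axis is log2 expression, and the 3 marks in a row are the 3 arrays of animal Q648. Quadruple 8 lies to the right of quadruple 10 in every row, by 1.23 (Ifi35) to 5.58 (Cxcl10), and to the right of quadruple 9 in every row except Ifi27l2a.

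Of 12 interferon genes listed, 7 were measured and 0 were called against gland in any group, where 4.03% to 17.2% of all genes were called. The means of the 7 over 39 arrays ran from 2.72 (Ifna11) to 5.06 (Ifna1). Ifna1 was close to the array medians, which are taken over all probe sets, but only 31.6% of the named genes had a lower mean. For Ifnb1, Ifng and Ifna11 this share was 21.6%, 7.62% and 4.17%. In the quadruple comparison the smallest p were those of Ifna5 (-0.21, adjusted p = 0.274) and Ifna2 (-0.12, adjusted p = 0.430). Ifnb1 ran from 3.83 to 4.38 in the quadruple arrays, with the highest in quadruple 8, and from 3.98 to 4.94 in the triple K5Cre arrays, with the highest in array 6. It read 3.89 to 4.57 in the glands, 4.08 to 4.22 in the triple Bcat arrays, 3.83 and 4.28 in the masses and 3.81 to 4.11 in the ventral tumours. Ifng stood apart in a single array, quadruple 8, at 6.67. The next highest value of the series was 3.85 in ventral tumour 1. The quadruple median was 2.81, and the ranges of other groups were 2.27 to 3.11 (triple K5Cre), 2.71 to 3.10 (glands), 2.49 to 3.26 (triple Bcat) and 2.56 to 3.29 (masses). Because detection calls were not used, low values were not separated from background.

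Quadruple 8 was also the array with the highest level of T and NK markers, at 2.50. All 10 markers measured of 12 were above their own mean there, 8 by over 2-fold, and 6 had their highest value of the series. Gzmb, the granzyme of cytotoxic granules, read 10.75, Nkg7 9.69, Cd8a 7.09 and the chemokine Cxcl9, induced chiefly by interferon gamma, 12.40. In triple K5Cre 6, the second highest array for the members, the same marker level was -0.57 and 0 of the 10 markers were above their mean. Its Ifng was 2.73, its Ifnb1 was the highest of the series, and its fibroblast level was -2.28. The next highest arrays for the members, triple K5Cre 1 and the second array of masses, were above the mean for most of these markers: 9 of 10 in the former (marker level 0.39) and 8 of 10 in the latter (0.62). In quadruple 3, the second highest quadruple array, the T and NK level was -0.08 and the fibroblast level -3.59. Quadruple 2 was the converse, with a T and NK level of 1.94, a B cell level of 3.58 and a member level of only 0.24. Its level of lymph node stroma markers (2.31) was the highest of the series, and its adipocyte level was 5.20. Whether this sample held lymph node was not tested. In the lowest arrays the T and NK level was -1.06 (quadruple 14), -1.11 (quadruple 13) and -1.11 (triple K5Cre 5), and the macrophage level -2.19, -0.58 and -1.45. The fibroblast level was low there too, at -2.07, -0.64 and -1.16. The marker level ran from -1.11 to 2.50 in the quadruple arrays, -1.11 to 0.39 in triple K5Cre, 0.10 to 0.50 in the glands, -0.24 to 0.12 in triple Bcat, -0.01 to 0.62 in the masses and 0.38 to 0.86 in the ventral tumours. The part of these cells in the members' values was not tested.

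Averaged by animal, the member level and the T and NK level had a Pearson r of 0.60 and a Spearman rho of 0.67 over the 15 quadruple animals (r = 0.71 without the 2 farthest animals). Over the 8 triple K5Cre animals they were 0.64 and 0.45 (r = 0.35 without the 2 farthest). The level of MHC class II presenting cell markers had an r of 0.63 in the quadruple animals (0.46 without the 2 farthest) and 0.53 in the triple K5Cre animals (0.021). The macrophage level had an r of 0.505 (0.25) and 0.41 (-0.10), and the fibroblast level 0.14 (0.34) and -0.18 (0.07). The epithelial level had an r of 0.02 in the quadruple and 0.90 in the triple K5Cre animals (0.72 without the 2 farthest), a difference that was not tested. These values describe animals that share a normalization, and 20 lists were set against the member level in each group.

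**Figure D5:**
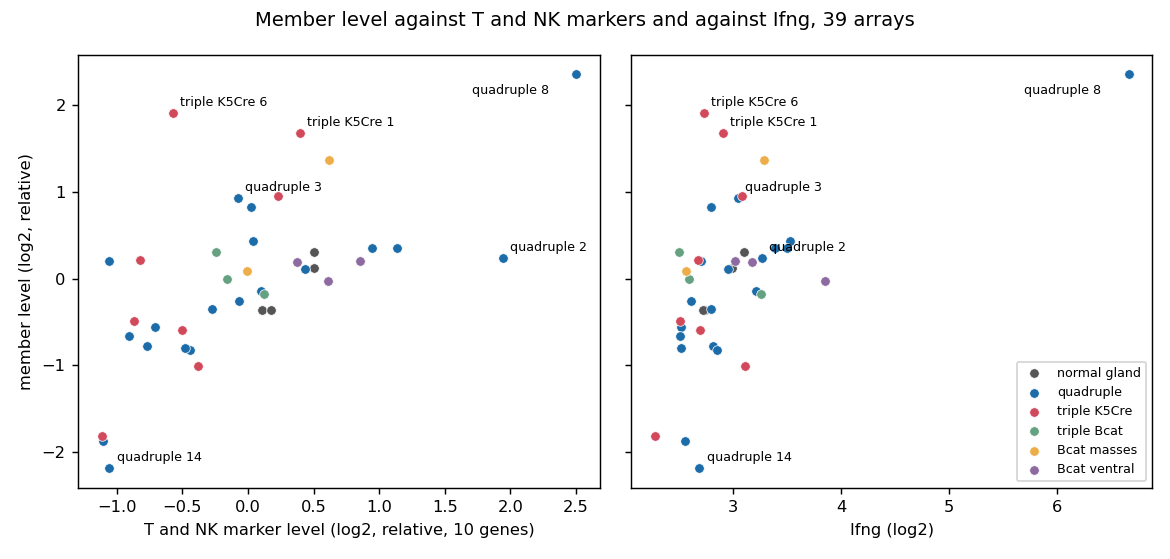
Each point is an array, the vertical axis is the member level, and the horizontal axes are the mean of 10 T and NK markers in log2 relative to their means (left) and Ifng in log2 (right). Quadruple 8 is highest on all 3 scales (2.36, 2.50 and 6.67), whereas triple K5Cre 6 combines a member level of 1.91 with a marker level of -0.57 and an Ifng of 2.73.

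The members also varied together pair by pair. Over the 39 arrays the 595 pairs had a median r of 0.79, from 0.087 to 0.97, and within the quadruple and the triple K5Cre arrays the medians were 0.83 and 0.90. For 29 of the 35 genes the correlation with the mean of the other members was above 0.8, and for 17 it was above 0.9. Xaf1, Ifit1 and Bst2, the last a protein that tethers budding virus, followed the others most closely (all 0.96). Ifi27l2a (0.49), Irgm1 (0.57) and Cmpk2 (0.72) followed them least. The median r of all genes with the member level was 0.016. Across roles, the sensors and the Isg15 conjugation genes had a median r of 0.88, the sensors and the GTPases 0.78, and antigen processing and Cxcl10 0.67. Neighbouring genes gave 10 pairs among 14 members on 5 chromosomes, such as Ifit2 with Ifit3 (r = 0.94) and Psmb8 with Psmb9 (r = 0.97), with a median r of 0.86. Rsad2 and Cmpk2, which have no coding gene between them, had an r of 0.73. Arrays of an animal are not independent, and these correlations carry no test.

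Among the 18159 genes outside the list, 8 had an r above 0.9 with the member level and 41 above 0.8. The 3 nearest were Ddx60, a helicase (r = 0.96), Rnf213, a ubiquitin ligase (0.95), and Irgm2, an immunity-related GTPase (0.93).

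Other genes of the pathway stayed mostly below the threshold. Of 25 further interferon-stimulated genes measured, 0 were called against gland in any group, where 4.03% to 17.2% of all genes were called. Their smallest p in the quadruple comparison were those of Ifi204 (-1.34, adjusted p = 0.163) and Gbp6 (-1.39, adjusted p = 0.251), and in the triple K5Cre comparison those of Gbp6 (-1.45, adjusted p = 0.228) and Ifi204 (-1.12, adjusted p = 0.263). Their mean level followed the member level with an r of 0.98 in both the quadruple and the triple K5Cre animals. Of 10 receptor and JAK-STAT genes measured, 2 fell in triple K5Cre, where 17.2% of all genes were called and 9.79% were called lower. They were Ifngr1, a chain of the interferon gamma receptor (-1.08, SE 0.33, adjusted p = 0.018), and Ifnar2, a chain of the type I receptor (-0.95, SE 0.34, adjusted p = 0.047). In the quadruple arrays their differences were -0.86 (adjusted p = 0.059) and -0.69 (adjusted p = 0.162). The adipocyte and muscle markers given above moved with these comparisons as well, and their part was not tested. Irf9, the DNA-binding partner of Stat2, had means of 8.50 ± 0.21 in the glands, 8.65 ± 0.43 in the quadruple arrays and 8.89 ± 0.67 in triple K5Cre (SD). Its means were 8.77 in triple Bcat, 8.81 in the masses and 8.80 in the ventral tumours.

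Of 6 other interferon regulatory factors measured, Irf4, which lymphocytes and some myeloid cells use, fell in the quadruple (-1.62, SE 0.36, adjusted p = 0.0013) and the triple K5Cre arrays (-1.999, SE 0.37, adjusted p = 0.00016). In these comparisons 15.4% and 17.2% of all genes were called. Adipocyte and muscle markers fell in the same comparisons, and their part in the fall of Irf4 was not tested. Irf1, induced by interferon gamma, had means of 9.42 ± 0.31 in the glands, 9.19 ± 0.86 in the quadruple arrays and 9.06 ± 1.04 in triple K5Cre, and its highest values were 11.06 in quadruple 8 and 10.63 in triple K5Cre 6. Its means were 9.44 in triple Bcat, 9.82 in the masses and 9.93 in the ventral tumours. Of 13 nucleic acid sensing genes measured, Ikbke, a kinase that activates interferon regulatory factors, rose in triple Bcat (1.63, SE 0.43, adjusted p = 0.015) and in the masses (1.73, SE 0.46, adjusted p = 0.017). Of all genes, 7.12% and 7.28% were called there. Neutrophil markers moved with these comparisons: of 7 measured, 4 were called higher in triple Bcat and 2 in the masses. Other marker lists moved too. The mean squamous level was -3.40 in the glands, 1.64 in triple Bcat and 2.12 in the masses. The mean adipocyte level was 5.37, -0.69 and -1.90 in the same order. The part of any of these cells in the rise of Ikbke was not tested. Of 9 MHC class I presentation genes measured, 0 were called in any comparison with gland, where 4.03% to 17.2% of all genes were called. B2m, the light chain of MHC class I, had the smallest p of the 9 in the quadruple (-0.32, adjusted p = 0.248) and triple K5Cre arrays (-0.45, adjusted p = 0.091). The mean level of the 9 followed the member level with an r of 0.83 over quadruple and 0.94 over triple K5Cre animals.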

How the data were processed

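RNA from 39 mouse samples was isolated on Qiagen RNeasy columns and labelled with biotin for Affymetrix 3' arrays, per the labels' protocols. The deposited log2 values of 45101 probe sets were made by the authors with RMA, per the submitters' processing notes; its version was not given in those notes. RMA corrects background, normalizes between arrays and summarises probes, so values are relative to the other arrays. Gene names came from the platform annotation and RefSeq (GRCm38.p6): 34958 carried 1 gene, 932 several and 9211 none. Of the members, 16 have several probe sets; the brightest on average was used, and one marked _x_at only where no other existed.

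A limma model on all arrays had 1 mean per group, animal as random block (consensus correlation 0.329) and an intensity trend; 9 comparisons were made and adjusted separately over 18194 genes at 0.05. Because of the block, a fitted difference need not equal the difference of 2 means. Animals were read from identifiers in the sample titles; p-values measure the spread between these samples. The only shared animals between groups are T627 and T635 (2 pairs), which were also fitted with the animal as a fixed block. The fit was tested on simulated data: of 200 genes changed by 1 log2 unit, 73.0% were recovered in quadruple against gland and 48.0% in masses against gland, over genes of typical spread, which is smaller than that of the members.

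The members and lists were chosen with earlier results of these data known. Named were, per comparison, up to 4 called members in each direction or the 2 with the smallest p; Irf7, Ifit1, Stat2, Cxcl10, Gbp2, Igtp and Psmb8 in every group; the top and bottom 3 of an ordering; up to 2 called genes or the 2 smallest p of other lists; Irf9, Irf1, Ifng and Ifnb1. Cell type marker genes, array extremes and genes of neighbouring pairs named beyond this were chosen after their values were seen. Alternatives changed the block, the arrays fitted, the normalization (cyclic loess), the filter on dim genes, the probe set rule, the trend and array weights, or left out arrays. Software was limma 3.58.1 in R 4.3.3, and pandas 2.3.3, numpy 2.4.6 and scipy 1.17.1 in Python 3.11.15.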

Additional observations from a re-analysis of the deposited data

Results flagged for a closer look

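Among 72 sets of values tested (members in groups of 4 to 10 arrays), 1 had a sample far from the others: Iigp1, an immunity-related GTPase, was 9.106 in normal gland 1, and the nearest gland read 10.688, a gap of 0.962 of the group's range. Chance alone flags about 1 in 20 such sets.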

How the results depend on the processing

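Of 128 recomputed counts of called members, 112 stayed within 1.5 times the reported count. The reported counts were all 0 or 1, so this agreement says little. Of 128 median differences, 127 moved by less than the pooled SD of the member level between arrays. That SD is wide: the change from 0.16 to -0.72 in triple K5Cre, given below, stayed within it. The bar therefore does not show that a median kept its sign. No called value changed sign. Ifi27l2a fell in quadruple against gland in all 16 settings (-3.64 to -3.11) and its difference in triple K5Cre was negative in all 15 (-3.09 to -2.21) and past the threshold in 9. The count for triple K5Cre against gland was 0 with no block, with animal means and without the 3 arrays low in Xist, and 0 to 1 when single arrays were left out (0 without gland 2 or gland 3). With the animal of the 2 pairs as a replicate block it was 0, with a median of -0.72, the opposite sign to the reported 0.16. No other comparison has pairs. With array weights the counts were 2 (quadruple against gland), 2 (triple Bcat), 6 (masses) and 2 (ventral tumours), and 1 each for quadruple against triple Bcat and against the masses, in fits that called 36.9%, 36.2%, 22.9%, 29.9%, 13.3% and 2.56% of all genes. With the compared groups fitted alone they were 2 (triple Bcat), 11 (masses) and 3 (ventral tumours), where 11.2%, 20.2% and 14.3% of all genes were called, and with no block 1 (ventral tumours, with 2009 of all genes called). The masses' median ran from 0.16 to 1.26 when single arrays were left out. The causes were not tested. After seeing the data, quadruple 8 and the 2 lowest quadruple arrays were also left out: the median against gland was -0.17 and 0.05. The range of the member level was 4.57 with cyclic loess and 4.18 with the mean of all probe sets. Groups of 2 to 4 arrays, a spread shared over all groups and unseparated background limit what could be called.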
